A study of Rattus norvegicus with 6 samples.

Results

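The genes described here build, modify and degrade the extracellular matrix of the liver, together with markers of hepatic stellate cells and myofibroblasts. They were taken from a list of 39 rat symbols, against 15284 symbols that probes of the array could be given through their RefSeq accessions. Probes matched 33 of the 39, and 31 had at least 1 probe bright enough to test. For Col5a2, Col6a1, Col6a3, Col4a2, Lamb1 and Lox no probe was matched by accession. Lum was not well above background on any array, and Timp3 was on 1 corn oil array only.

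Liver RNA from male Sprague-Dawley rats was hybridised to single-colour Agilent arrays, 1 animal per array. The control group held 3 rats that received corn oil, and the treated group held 3 rats that received o-Anthranilic acid at 1000 mg/kg/day. All were 5 weeks old at purchase and ate a basal diet. The treatment protocol states 9 weeks of dosing and the series design states 28 days, so the exposure time behind the values cannot be settled here.

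The liver matrix is a thin meshwork of collagens, laminins, fibronectin and proteoglycans, made largely by stellate cells, the vitamin A-storing pericytes of the sinusoids. Procollagen chains are hydroxylated on proline and lysine in the endoplasmic reticulum before they fold into a triple helix, and lysyl oxidases later cross-link the secreted fibres. On injury stellate cells turn into contractile myofibroblasts under TGF-beta and PDGF, and transcripts of fibrillar collagens, Timp1 and smooth muscle actin are the usual readout of that switch.

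Values below are log2 signals relative to the 75th percentile of each array, and each difference is the treated mean minus the corn oil mean on that scale. They were tested with limma, and p was adjusted by the Benjamini-Hochberg method over all 33428 tested probes. A gene was represented by its brightest tested probe. All 31 representative probes were well above background on all 6 arrays. Stellate cell transcripts were detected, as 8 of 8 marker genes (Lrat, Des and Pdgfrb of the members among them) were well above background on every array. Of the other stellate cell genes listed further on, the Gfap probe was too dim to test. Ngfr was well above background on only 2 of 3 corn oil arrays. Detection does not show which cells the other members' signal came from. In whole liver, fewer cells of a type and less RNA per cell cannot be told apart. Treated replicate 3 lay on a second slide and was scanned separately, and on the first slide each group filled a row of its own, so array row cannot be told apart from treatment within it.

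Of the 5 members with the lowest differences, 3 were enzymes that hydroxylate collagen, and the others were the protease inhibitor Timp2 and the matrix protein Fbn1. Plod1, P4ha1 and P4ha2 were lower in all 3 treated livers than in any control liver, by 1.34- to 1.46-fold, but no member passed the test at adjusted p under 0.05. The same held for all 10257 measured genes, of which 0% were called by limma, while 11.6% had an unadjusted p under 0.05. At that looser threshold 3 members were lower and none was higher, beside 6.15% of all genes lower and 5.47% higher. The median difference over the 31 members was -0.070, with 18 below 0, against 0.0085 over all genes, whose quartiles were -0.13 and 0.13. Without corn oil replicate 2 or treated replicate 2 the members' median was -0.0098 or -0.0031. For 5 members the treated and control values were fully separated, 3 lower and 2 higher, beside 19.8% of all genes (935 lower, 9.12%, and 1094 higher).

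**Figure D1:**
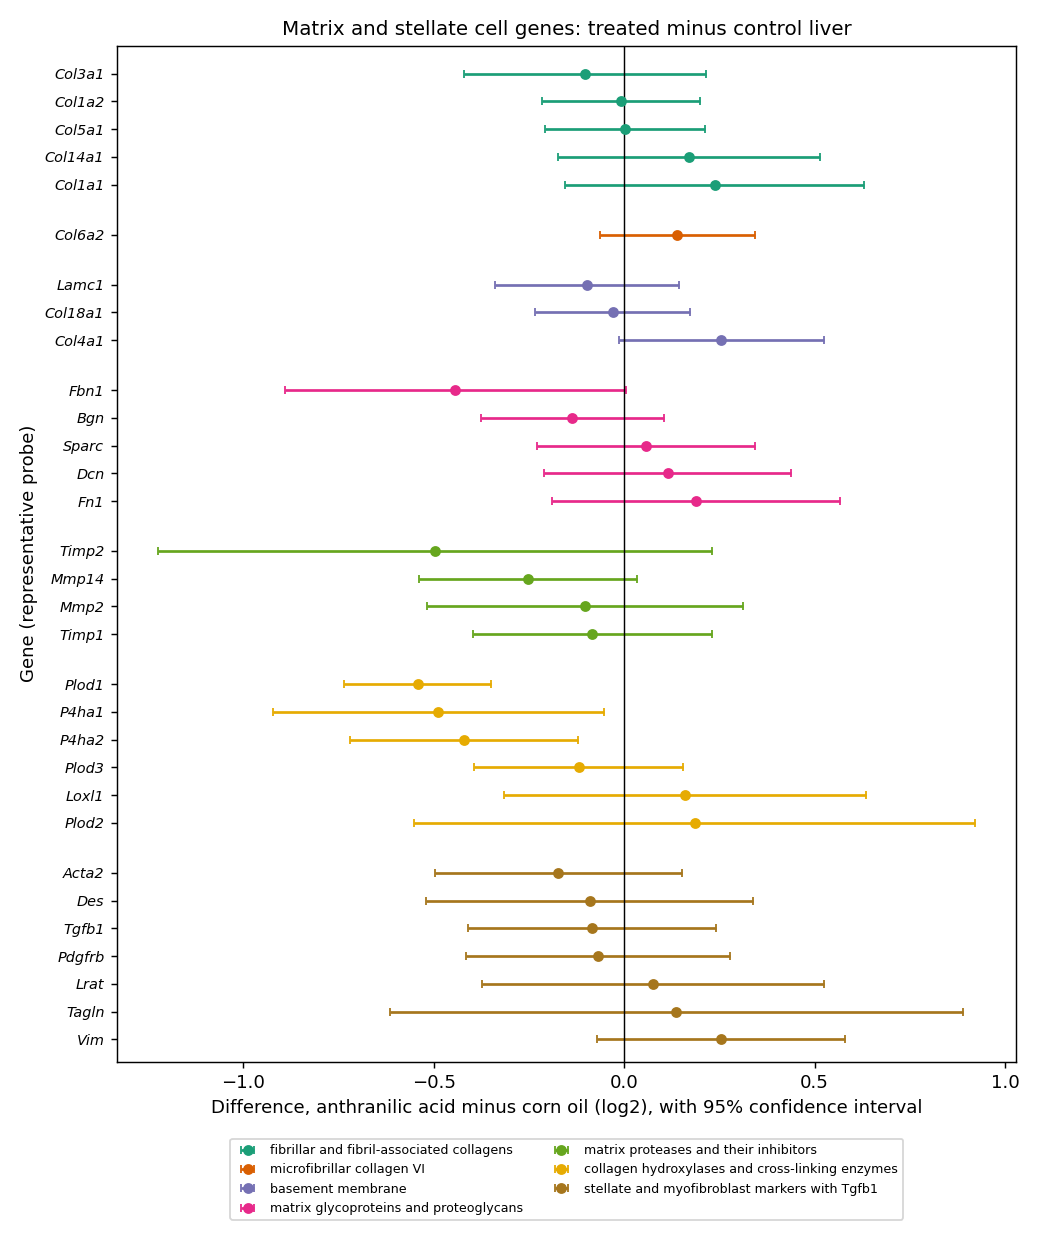
Difference between anthranilic acid and corn oil livers (log2, x axis) for the 31 measured genes (y axis), coloured by class, as the fitted value with its 95% confidence interval, 3 arrays per group. The intervals of Plod1, P4ha1 and P4ha2 lie wholly below 0, and those of the other 28 genes include 0.

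The enzymes that modify collagen had the lowest median of the 7 classes, at -0.27 over 6 measured genes, with 4 below 0. Plod1, a lysyl hydroxylase, read 3.39, 3.40 and 3.31 in the corn oil livers and 2.85, 2.77 and 2.85 in the treated livers. The groups were separated by far more than the spread within either, with SDs of 0.050 and 0.046. The difference was -0.54 (SE 0.080, n = 3 per group, adjusted p = 0.131), or 1.46-fold, which placed Plod1 at rank 18 of 10257 genes by p and at rank 662 by size. A second, dimmer Plod1 probe gave -0.58 (SE 0.10, adjusted p = 0.172), again without overlap. With normexp background correction the first probe passed the test, at -0.60 (adjusted p = 0.0491), and over all 17 alternatives its adjusted p ran from 0.0491 to 0.369.

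P4ha2, a catalytic subunit of prolyl 4-hydroxylase, read 3.45, 3.22 and 3.05 in corn oil livers and 2.90, 2.75 and 2.82 in treated livers. The highest treated value lay just below the lowest control. Its difference was -0.42 (SE 0.12, adjusted p = 0.319), and its second probe gave -0.43 (SE 0.16, adjusted p = 0.388). P4ha1, another catalytic subunit, read -1.14, -0.92 and -1.28 against -1.49, -1.37 and -1.95. Treated replicate 3 was the lowest of the 6 arrays. The P4ha1 difference of -0.49 (SE 0.18, adjusted p = 0.387) was -0.31 without that array, which is also its value within the first slide.

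The other enzymes of the class did not separate the groups. Plod3, which also glycosylates collagen, was at -0.12 (95% interval -0.39 to 0.16). Plod2, which makes the telopeptide hydroxylysines used in stable cross-links, was at 0.19, with an interval of -0.55 to 0.92 that leaves its direction unknown. On the tested Plod2 probe, corn oil replicate 2 and treated replicates 2 and 3 were high, between -2.61 and -2.53, and the remaining arrays read -3.40 to -3.26. The other 2 Plod2 probes were not well above background on any array, so Plod2 rests on 1 dim probe. Loxl1, a lysyl oxidase, was at 0.16 on its brighter probe and at -0.43 on the other, both with intervals that include 0.

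**Figure D2:**
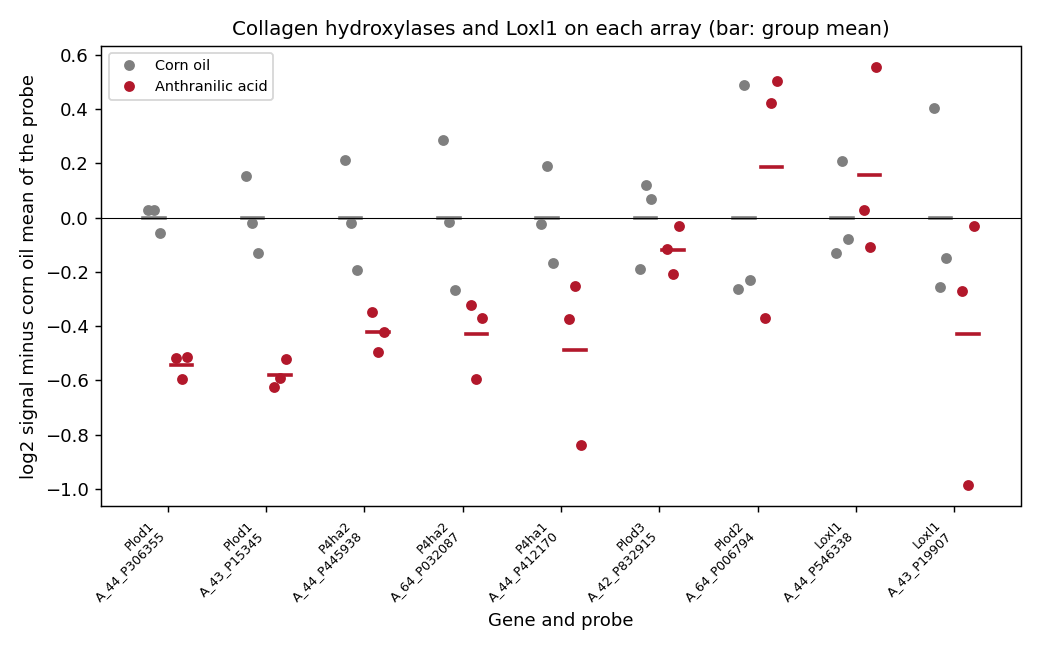
Signal on each array (log2 minus the corn oil mean of the same probe, y axis) for every tested probe of the collagen hydroxylases and Loxl1 (x axis). Points are animals, grey for corn oil and red for anthranilic acid, and bars are group means. Both Plod1 probes, both P4ha2 probes and the P4ha1 probe show 3 red points below all grey points, while Plod3, Plod2 and Loxl1 overlap.

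Genes of these hydroxylase families are well-known targets of hypoxia-inducible factors, whose core binding letters are ACGTG or GCGTG. The sequence before the gene start is shown for the 3 enzymes that were lower in every treated liver, and for Plod2 of the same family, which overlapped. Each is the 250 bases upstream of the start, 5' to 3' on the strand of the gene, from RefSeq on GRCr8, with every ACGTG or GCGTG on either strand in capitals. The windows are chr5:163650738-163650987 on the minus strand for Plod1 and, on the plus strand, chr10:38743644-38743893 for P4ha2, chr20:27844796-27845045 for P4ha1 and chr8:101964068-101964317 for Plod2.
Plod1: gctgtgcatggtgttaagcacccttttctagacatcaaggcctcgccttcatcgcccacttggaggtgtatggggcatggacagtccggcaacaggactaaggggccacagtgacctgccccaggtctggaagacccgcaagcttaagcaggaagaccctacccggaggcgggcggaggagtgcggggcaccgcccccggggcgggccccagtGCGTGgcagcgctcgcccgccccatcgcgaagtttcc
P4ha2: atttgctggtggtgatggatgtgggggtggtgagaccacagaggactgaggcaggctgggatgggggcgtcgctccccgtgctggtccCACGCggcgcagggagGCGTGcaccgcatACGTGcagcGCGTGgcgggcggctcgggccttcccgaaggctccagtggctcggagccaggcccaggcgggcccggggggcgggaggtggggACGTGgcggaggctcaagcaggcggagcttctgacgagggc
P4ha1: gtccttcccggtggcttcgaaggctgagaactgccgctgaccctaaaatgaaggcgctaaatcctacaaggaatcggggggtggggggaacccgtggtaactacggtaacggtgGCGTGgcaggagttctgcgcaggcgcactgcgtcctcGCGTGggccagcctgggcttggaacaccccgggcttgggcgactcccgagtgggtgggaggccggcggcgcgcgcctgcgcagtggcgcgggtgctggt
Plod2: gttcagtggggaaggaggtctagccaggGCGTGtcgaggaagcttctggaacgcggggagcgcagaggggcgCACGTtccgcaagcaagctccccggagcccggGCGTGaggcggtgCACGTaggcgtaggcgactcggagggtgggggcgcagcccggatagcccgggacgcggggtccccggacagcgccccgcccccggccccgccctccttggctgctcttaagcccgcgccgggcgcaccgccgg

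Plod1 held 1 match, which starts 37 bases before the gene, P4ha1 held 2, Plod2 held 4 and P4ha2 held 5. Of 33469 promoters of this length in the table, 36.7% held at least 1 match, 6.21% held 3 or more and 1.04% held 5 or more. The table held 27 of the 39 genes, and 14 of those (51.9%) had a match. A match is a string of letters and not a measured binding site, and the letters were chosen after the differences were known.

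Fibrillar and fibril-associated collagens, the load-bearing fibres and the molecules on their surface, had a median difference of 0.0024 over 5 measured genes. Col1a2, a chain of type I collagen, was at -0.0085 (95% interval -0.22 to 0.20), and its other probe at 0.078. Col5a1, of the minor collagen that sets fibril width, was at 0.0024 (-0.21 to 0.21), and its other probes at -0.083 and -0.31. Col1a1, the partner of Col1a2 in type I collagen, read 0.93, 0.40 and 0.92 in corn oil livers and 0.90, 1.01 and 1.06 in treated livers. The groups overlapped, and the low value of corn oil replicate 2 carried most of the difference of 0.24 (adjusted p = 0.568), which was 0.063 without that array. The other 2 probes of Col1a1 read highest of the controls in that same animal, and gave 0.34 and 0.39 (adjusted p = 0.564 and 0.605). Col3a1 was at -0.10 (-0.42 to 0.21). Col14a1, which sits on collagen I fibres, read 3.03, 2.75 and 3.22 against 3.27, 3.18 and 3.05, a difference of 0.17 with overlapping groups (adjusted p = 0.644).

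Col6a2, a chain of the beaded collagen VI filaments and the single measured gene of that type, read 2.59, 2.55 and 2.63 in corn oil livers and 2.64, 2.76 and 2.80 in treated livers. All 3 treated values were above the controls by a small margin, and the difference was 0.14 (SE 0.084, adjusted p = 0.525). A second probe of Col6a2 gave 0.0018.

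Of the basement membrane genes, Col4a1 had the largest positive difference of all members. This chain of the sheet-forming collagen IV read 1.92, 2.17 and 2.22 in corn oil livers and 2.30, 2.32 and 2.46 in treated livers. No treated value fell within the control range, and the difference was 0.26 (SE 0.11, adjusted p = 0.420). One further Col4a1 probe gave 0.21 and the other 2 gave -0.076 and -0.12, so the direction was not shared by all 4. Lamc1, the laminin gamma chain, read 1.24, 1.34 and 1.43 against 1.23, 1.13 and 1.35, an overlapping -0.098 (adjusted p = 0.707). Col18a1, whose C-terminal fragment is endostatin, was at -0.030 (-0.23 to 0.17).

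Among glycoproteins and proteoglycans, fibronectin (Fn1), the plasma and matrix adhesion protein that hepatocytes also secrete, was at 0.19 (-0.19 to 0.57), and its other 2 probes gave 0.20 and 0.22. Sparc, a collagen-binding glycoprotein, was at 0.058, and decorin (Dcn), a small proteoglycan that coats collagen fibrils, was at 0.11. Biglycan (Bgn), its close relative, read 6.36, 6.31 and 6.48 against 6.33, 6.11 and 6.30, an overlapping -0.14 (adjusted p = 0.594). Fbn1, the fibrillin of elastic microfibrils, read 1.23, 1.08 and 0.96 in corn oil livers and 0.54, 0.36 and 1.03 in treated livers. Treated replicate 3 sat inside the control range and the other 2 sat below it, which gave -0.44 (SE 0.19, adjusted p = 0.409), or -0.63 without that array. The class median was 0.058, and -0.048 without treated replicate 3.

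The proteases and their inhibitors, which set the balance of matrix breakdown, were all below 0, with a median of -0.18 over 4 measured genes. Mmp14, the membrane-bound collagenase that activates pro-Mmp2, read 4.84, 4.86 and 5.10 in corn oil livers and 4.84, 4.60 and 4.60 in treated livers. Treated replicate 1 lay among the controls while replicates 2 and 3 lay beneath them, and the difference was -0.25 (SE 0.12, adjusted p = 0.441). The second Mmp14 probe gave -0.27 without overlap between the groups (SE 0.12, adjusted p = 0.412). Mmp2, a gelatinase, was at -0.10 and Timp1, the inhibitor most used as a fibrosis marker, was at -0.084 (-0.40 to 0.23). Timp2 read 3.51, 3.54 and 2.95 against 2.96, 2.25 and 3.30, among the widest spreads of any member. Its difference of -0.50 (SE 0.30, adjusted p = 0.526) was -0.20 without treated replicate 2.

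Markers of stellate cells and myofibroblasts had a median of -0.070 over all 7 genes, none of which separated the groups. Lrat, which esterifies retinol for storage and marks quiescent stellate cells, was at 0.075 (-0.37 to 0.52). Desmin (Des) and the PDGF receptor Pdgfrb, carried by both quiescent and activated cells, were at -0.090 and -0.070. Acta2, the smooth muscle actin of myofibroblasts, read -2.01, -1.71 and -1.58 in corn oil livers and -1.92, -1.85 and -2.05 in treated livers. The ranges crossed, and its difference was -0.17 (SE 0.13, adjusted p = 0.618). Vimentin (Vim), an intermediate filament of mesenchymal cells, read 0.27, 0.13 and -0.023 against 0.47, 0.15 and 0.51. Treated replicates 1 and 3 exceeded every control and replicate 2 did not, for a difference of 0.25 (SE 0.13, adjusted p = 0.478). Tagln, an actin-binding protein of contractile cells, was at 0.14, and its corn oil replicate 1 read -1.99 against -1.24 to -0.82 on the other 5 arrays. Tgfb1, the ligand that drives collagen synthesis, was at -0.085 (-0.41 to 0.24). The class median was 0.089 without treated replicate 1.

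Several members gave different answers by probe. There were 18 members with more than 1 tested probe, and in 6 of them (Col14a1, Col1a2, Col4a1, Col5a1, Fbn1 and Loxl1) the probes differed in sign. Over the 56 tested probes of the list, 6 were lower and 1 was higher at unadjusted p under 0.05, beside 6.52% and 5.72% of all tested probes. None passed the adjusted test, beside 0.0329% of all tested probes. The lower ones were the 5 probes of Plod1, P4ha2 and P4ha1 and a Col14a1 probe, A_44_P171271. That probe read -3.02, -2.99 and -2.79 in corn oil livers and -3.55, -3.41 and -3.63 in treated livers. It separated the groups (-0.59, SE 0.11, adjusted p = 0.179), unlike the brighter probe of the gene. The higher one was the dimmer Fbn1 probe, A_44_P179745, which read -1.43, -1.57 and -1.59 against -1.25, -1.27 and -1.23. Its difference of 0.28 (SE 0.084, adjusted p = 0.323) ran opposite to that of the brighter Fbn1 probe.

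Whether 2 probes of a gene shifted differently was tested directly, on the difference between the representative and each other probe within an array. Of 25 such pairs from members, none passed in the limma fit over 6993 pairs (0.0429% called), and 3 had an unadjusted p under 0.05, beside 7.59% of all pairs. For Col14a1 the representative probe and A_44_P171271 shifted apart by 0.76 (SE 0.11) at adjusted p = 0.261. The other Col14a1 probe gave 0.19 (SE 0.072, adjusted p = 0.594). For Fbn1 the shifts of the 2 probes differed by -0.72 (SE 0.16, adjusted p = 0.448). The paired probes of Plod1 and P4ha2 differed by 0.037 (SE 0.078) and 0.0063 (SE 0.074). Averaging all tested probes moved Col14a1 from 0.17 to -0.15 and Fbn1 from -0.44 to -0.082.

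**Figure D3:**
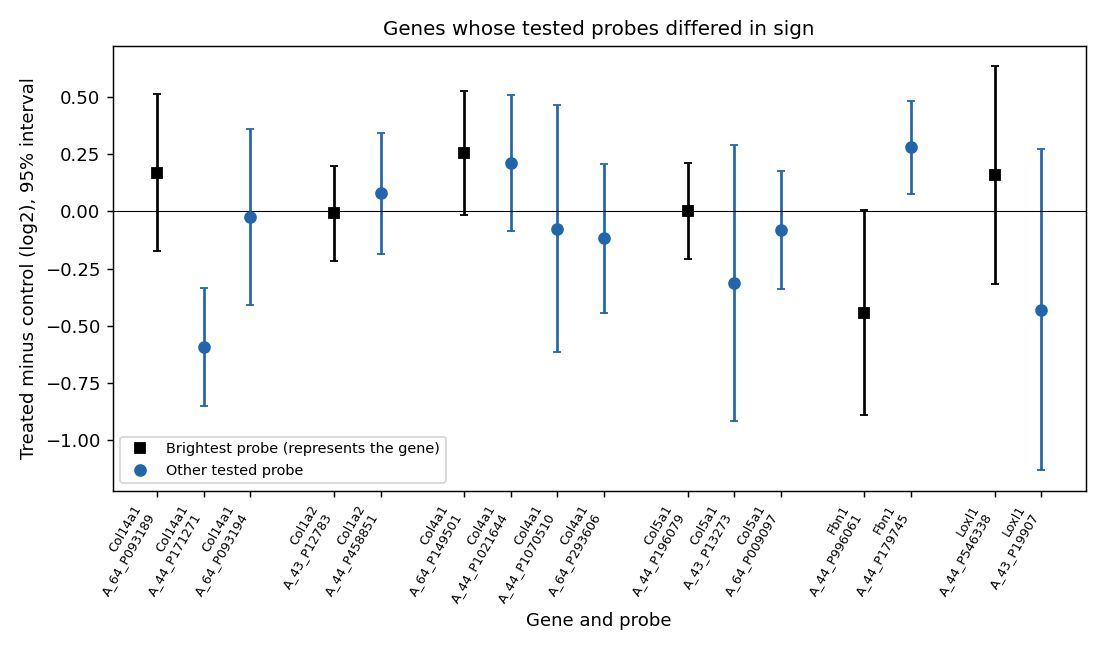
Difference between treated and control livers (log2, y axis) with its 95% confidence interval for each tested probe (x axis) of the 6 genes whose probes differed in sign. Black squares are the probes that represent their gene and blue circles the others. The intervals of Col14a1 A_44_P171271 and Fbn1 A_44_P179745 exclude 0, on opposite sides.

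Animals differed from each other by about as much as for other genes, with a median within-group SD of 0.17 over the members and 0.15 over all genes. Tagln, Plod2 and Timp2 varied most, with pooled SDs of 0.46, 0.45 and 0.45, and Plod1 varied least, at 0.048. Treated replicate 3 lay above its group mean for 23 of 31 members, against 11 for treated replicate 1 and 12 for treated replicate 2. In the corn oil group the counts were 14, 19 and 15. Treated replicate 3 is also the array of the second slide, and the part of the slide in this count was not tested.

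Beyond the members, 77 further genes of the same pathways were listed, and 49 were measured. None passed at adjusted p under 0.05, where the lowest adjusted p was 0.150, and 5 had an unadjusted p under 0.05, all lower in treated livers. That is 5 of 49, beside 11.6% of all genes in either direction and 6.15% lower. The count was 8 without corn oil replicate 1, 2 without corn oil replicate 2 and 9 without corn oil replicate 3. It was 10 without treated replicate 1 and 3 without treated replicate 2. Over the 49 genes the median difference was -0.041, with 29 below 0.

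In TGF-beta and PDGF signalling 12 of 18 genes were measured, 7 of them below 0. Among the 7, the receptor Tgfbr3, at -0.23, was well above background on 3 corn oil arrays and 1 treated array. That probe was tested only because all 3 corn oil arrays passed, so its sign carries no weight here. The 7, and the 29 of 49 above, include it. Ccn2, the connective tissue growth factor induced by TGF-beta and by mechanical load, read -2.11, -2.02 and -2.06 in corn oil livers and -2.78, -3.30 and -2.88 in treated livers. The controls agreed closely and every treated value lay well beneath them, with a difference of -0.93 (SE 0.15, adjusted p = 0.150), or 1.90-fold. Pdgfa, a ligand of the PDGF receptors, read 1.70, 1.59 and 1.43 against 1.08, 0.81 and 1.28. Its groups did not overlap either (-0.52, SE 0.14, adjusted p = 0.304), and its other 2 probes gave -0.77 and -0.58 (adjusted p = 0.268 and 0.278). The TGF-beta receptors Tgfbr1 and Tgfbr2 were at 0.14 and -0.053 and the signal transducers Smad2 and Smad4 at -0.0024 and 0.075. Tgfbr1 read 0.73, 0.76 and 0.76 in corn oil livers and 0.80, 1.03 and 0.86 in treated livers. All 3 treated values were above the controls (SE 0.092, adjusted p = 0.544). The largest positive differences of the list were those of Bambi, a decoy receptor, at 0.58 (SE 0.30, adjusted p = 0.472) and the inhibitory Smad7, at 0.54 (SE 0.37, adjusted p = 0.567). Bambi read -0.15, -0.44 and 0.0017 in corn oil livers and -0.063, 0.16 and 1.05 in treated livers. Its treated replicate 1 lay within the control range, and replicate 3, the array of the second slide, was far the highest. Smad7 read 1.24, 1.15 and 0.83 in corn oil livers and 0.75, 2.08 and 2.02 in treated livers, so treated replicate 1 lay below the controls and the other 2 above them.

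Of the genes for collagen folding, secretion and processing, 10 of 12 were measured, with 8 below 0 and a median of -0.12. None had an unadjusted p under 0.05. P3h2, a prolyl 3-hydroxylase, and Colgalt1, which adds galactose to hydroxylysine, both had non-overlapping groups, at -0.44 (SE 0.18, adjusted p = 0.408) and -0.25 (SE 0.10, adjusted p = 0.409). P4hb, the protein disulfide isomerase that is the shared beta subunit of prolyl 4-hydroxylase, was at -0.13 (SE 0.15) and Serpinh1, the collagen chaperone, at -0.11 (SE 0.12), both with overlapping groups. P3h3, another prolyl 3-hydroxylase, read 1.20, 1.85 and 1.19 in corn oil livers and -0.23, -0.27 and 1.75 in treated livers, so treated replicate 3 alone lay within the control range.

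Other stellate cell genes were measured for 10 of 12, and 8 were below 0, with a median of -0.22. Ngfr, at 0.44, was tested only because all 3 treated arrays passed, so its sign carries no weight here, though the median includes it. Lhx2, a transcription factor that keeps stellate cells quiescent, read -0.21, -0.26 and -0.60 in corn oil livers and -0.79, -0.83 and -0.72 in treated livers. The groups were apart, by -0.42 (SE 0.12, adjusted p = 0.319). Hand2, another transcription factor of the stellate lineage, read -2.51, -1.66 and -2.08 against -2.41, -2.87 and -3.26. Here treated replicate 1 fell within the control range, and the difference was -0.76 (SE 0.29, adjusted p = 0.388). Hgf, the hepatocyte growth factor that stellate cells secrete, was at -0.21 without overlap (SE 0.094, adjusted p = 0.420). Reln and Cygb, further markers of the cells, were at -0.041 and 0.089.

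Among 13 of 25 other matrix genes that were measured, 9 were above 0 and the median was 0.058. Lama5 and Ecm1 had the smallest p, at 0.46 (SE 0.22, adjusted p = 0.441) and -0.24 (SE 0.11, adjusted p = 0.452). Among 5 of 11 other proteases and inhibitors that were measured, Adamts1, a protease of proteoglycans, was at -0.68 (SE 0.28, adjusted p = 0.401), and the urokinase Plau at -0.30 (SE 0.14, adjusted p = 0.452). Mmp3, Mmp8, Mmp9, Mmp12, Mmp13 and Postn had probes, but none that could be tested.

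**Figure D4:**
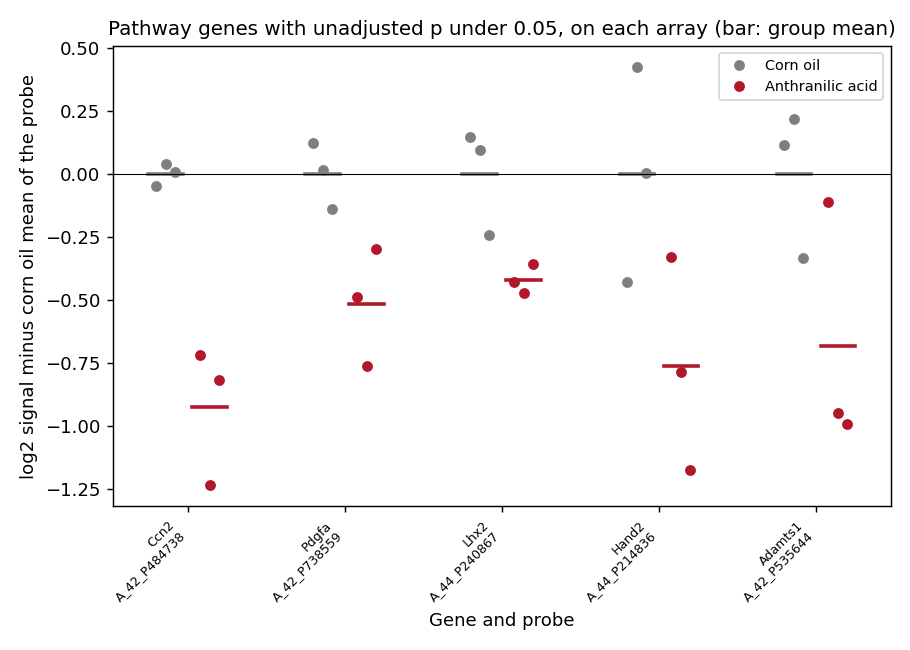
Signal on each array (log2 minus the corn oil mean of the same probe, y axis) for the 5 pathway genes outside the main list with unadjusted p under 0.05 (x axis). Points are animals, grey for corn oil and red for anthranilic acid, and bars are group means. Red points lie below all grey points for Ccn2, Pdgfa and Lhx2, and 1 red point overlaps for Hand2 and for Adamts1.

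Markers of other liver cells were read beside these values. Lymphocyte markers were above 0 in all 5 of 6 genes measured, with Cd79b at 1.11 (SE 0.22), and their summed level ran from 2.16 to 2.50 in corn oil livers and from 2.94 to 3.69 in treated livers. Hepatocyte markers were below 0 in 8 of 8 genes, with the smallest p for Apoa1 (-0.57, SE 0.15) and Ahsg (-0.13, SE 0.077), with summed levels of 5291 to 5446 and 4949 to 5023. Kupffer cell and macrophage markers were below 0 in 8 of 8, with the smallest p for Cd163 (-0.40) and C1qa (-0.19), with sums of 98.0 to 127 and 79.1 to 113. Endothelial markers were below 0 in 4 of the 5 measured of 8, with Lyve1 at -0.34 and Eng at 0.21, and sums of 47.2 to 47.8 and 43.9 to 48.6.

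The stellate markers had sums of 82.7 to 152 in corn oil livers and 85.1 to 109 in treated livers, with 6 of 8 below 0. Smooth muscle markers (3 of 6 measured, 1 above 0, Myh11 at -0.26 and Smtn at 0.17) had sums of 6.47 to 7.74 and 6.37 to 7.49. Cholangiocyte markers were above 0 in 4 of the 5 measured of 6, with a median of 0.38. Krt19 was at 0.60, Spp1 at 0.38 and Krt7 at 0.31, while Epcam, the brightest, was at -0.53, and the sums were 1.14 to 1.55 and 1.16 to 1.47. Cftr, at 1.07, is dim, and its corn oil arrays were well above background on 2 of 3. That probe was tested only because all 3 treated arrays passed, so its rise carries no weight here, though the 4 and the median include it. Mesothelial markers (3 of 5 measured, 2 above 0, Msln at 0.78 and Krt8 at -0.26) had sums of 5.53 to 7.25 and 4.61 to 6.63. Krt8, which is not particular to mesothelium, read 2.04 to 2.75 over the 6 arrays. Msln read -2.73 to -1.03 and Upk1b -3.72 to -1.36, so these sums are almost wholly Krt8 and do not measure mesothelium. Portal fibroblast markers (2 of 5 measured, Entpd2 at -0.17 and Eln at 0.12) had sums of 1.19 to 1.46 and 1.34 to 1.39. None of these genes passed by limma. The sums overlapped between groups for every list except lymphocytes and hepatocytes, and the part of cell composition in the hydroxylase values was not tested.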

How the data were processed

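Each sample is 1 rat liver on a single-colour array. Per the file headers, spot intensity was extracted with Agilent Feature Extraction 10.7.1.1 (10.7 in the submitters' processing notes) on a design of the rn4 build. The deposited intensity files hold one scan each, with no scaling across arrays. A table deposited by the authors holds a ratio of that signal to 1 value per array, within 0.0355% to 0.126% of its 75th percentile, and their scaling step was not given in the sources used here. It served as an alternative.

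From log2 of the processed signal, the 75th percentile of its array was subtracted. Control spots and 14 outlier spots were left out. A probe was tested if either group had all 3 of its arrays well above background. Array precision is limited by 3 animals per group. Between 53.3% and 58.0% of 61657 probes were well above background, no spot was saturated, and arrays correlated at 0.987 to 0.992 within groups and 0.984 to 0.989 between them. Accessions gave 27460 probes (44.5%) a symbol of the GRCr8 RefSeq table. The comparison used two-sided moderated tests from limma 3.58.1 (lmFit, eBayes) under R 4.3.3, where 4 degrees of freedom were residual and 2.30 came from the prior. Python 3.11.15 parsed the files. The fit was tested on simulated data.

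The members, lists and tests were chosen with earlier results of these data known. Members with an unadjusted p under 0.05, the 2 with the smallest p in each class, and those with disagreeing probes were given in full, and the 2 genes with the smallest p of each further list were named. Others named from those lists (receptors, Bambi, Smads, P4hb, Serpinh1, P3h3, Hgf, Reln, Cygb, Ngfr, further cholangiocyte markers and the untested genes) were added after their values were seen. Values of some single genes in these lists are not reported here. Labels put each array on its own animal. Alternatives changed the background correction, scaling, dim-probe filter, gene representative, variance model, slide, replicate number and the arrays included.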

Additional observations from a re-analysis of the deposited data

How the results depend on the processing

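The counts of called members, called pathway genes and called member probe pairs stayed at 0 under every alternative, except that Plod1 made it 1 member with normexp. Plod1 ran from -0.60 to -0.49, P4ha2 from -0.52 to -0.32 and P4ha1 from -0.61 to -0.31 over 17 alternatives, and the class median of collagen-modifying enzymes from -0.30 to -0.22. Members at unadjusted p under 0.05 numbered 6 with a trended robust variance and 2 to 4 with 1 array left out, and pathway genes 8 with array weights and 2 to 10. The members' median ran from -0.072 to -0.0031 with 1 array left out. With all probes averaged, fibrillar collagens stood at -0.10, Col6a2 at 0.071 and Col14a1 at -0.15, the opposite sign. Glycoproteins and proteoglycans stood at -0.048 with slide as a block and from -0.048 to 0.12 with 1 array left out, and stellate markers from -0.14 to 0.089. Treated replicate 3 is the only array of its slide, so the slide block must give the same differences as leaving that array out.

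Of all tested probes 11 were called. The count was 50 with normexp, 45 with a trended robust variance, 29 with array weights, 21 with median scaling, 6 with slide as a block, 2 with either other dim-probe filter and 4 to 21 with 1 array left out, lowest without corn oil replicate 1 and highest without corn oil replicate 3. No scaling moved the median of all genes by more than 0.060. With replicate number as a block 2 probes were called, and Plod1 had adjusted p = 0.369. Same-numbered arrays did not deviate together (r = 0.073, -0.051 and -0.043), so the numbers were not treated as pairs.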
